A study of Mus musculus with 4 samples.

Results

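The miR-200 family and miR-205-5p were examined in the stromal vascular fraction (SVF) of mouse visceral white adipose tissue (visWAT) after stimulation of the β3-adrenergic receptor. The members were mmu-miR-200a-3p, mmu-miR-200b-3p, mmu-miR-200c-3p, mmu-miR-141-3p and mmu-miR-429-3p, together with mmu-miR-205-5p. They were taken by name and not by their values, although earlier results of these data were known. They made up 6 of the 1247 mouse miRNAs on the array. The SVF is what remains of digested fat once the floating adipocytes are taken off, and in visceral depots it can contain cells of the mesothelium that covers the organ. Female mice aged 8 weeks received CL-316243 (CL), which activates the β3-adrenergic receptor, at 1 mg/kg daily for 3 days, or PBS as vehicle. No gene was altered in either group. The strain was C57BL/6 in the methods, whereas the strain cell of the labels runs through C57/BL6, BL7, BL8 and BL9 over the 4 samples. RNA pooled from several mice was hybridised to 1 array at a time, giving 2 vehicle arrays and 2 CL arrays. The spread between arrays is therefore a spread between pools, and it says nothing of the spread between single mice.

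The miR-200 family is known as a guardian of the epithelial state. Its members repress ZEB1 and ZEB2, transcription factors that silence E-cadherin and drive cells towards a mesenchymal phenotype, and ZEB1 and ZEB2 in turn repress both miR-200 loci. miR-205 belongs to another family and shares the ZEB targets, and it is best known from stratified and glandular epithelia. The mesothelium is an epithelial sheet of mesodermal origin that also keeps some mesenchymal traits. Fibroblasts, preadipocytes, endothelial cells and leukocytes, which make up most of an adipose SVF, are not known for the family.

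RefSeq (GRCm38.p6) held the mature sequence of all 6 members. The sequences are shown because the seed, bases 2 to 8 counted from the 5′ end and printed in capitals, splits the family into 2 groups that differ at a single seed base. The first group has the seed AAUACUG.

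miR-200b-3p: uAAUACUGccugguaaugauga
miR-200c-3p: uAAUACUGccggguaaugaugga
miR-429-3p: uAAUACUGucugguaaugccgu

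The second group has the seed AACACUG, which differs from the first by U4C, with positions counted from the 5′ end of the mature miRNA.

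miR-200a-3p: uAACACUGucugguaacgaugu
miR-141-3p: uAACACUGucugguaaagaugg

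miR-205-5p carries a seed of its own.

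miR-205-5p: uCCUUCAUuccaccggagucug

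The seed groups do not follow the genome. On chromosome 4, Mir200b, Mir200a and Mir429 lie on the minus strand within 1846 bases, in the interval of the lncRNA gene Gm13648. The mature miR-200b-3p lies at chr4:156055685-156055706, miR-200a-3p at chr4:156054911-156054932 and miR-429-3p at chr4:156053916-156053937. On chromosome 6, Mir200c and Mir141 lie on the minus strand within 477 bases, between the protein-coding genes Phb2 and Ptpn6. The mature miR-200c-3p lies at chr6:124718324-124718346 and miR-141-3p at chr6:124717917-124717938. miR-205-5p lies at chr1:193507503-193507524, also on the minus strand, in the interval of the lncRNA gene Mir205hg. Outside the seed the members of a pair remain alike. Between miR-200b-3p and miR-200c-3p 2 of 22 bases differ (U11G and A22G), and between miR-200a-3p and miR-141-3p also 2 of 22 (C17A and U22G).

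The array measured each member with 2 probes of 20 spots each. All 12 probes were the exact complement of the 3′ end of their mature miRNA, and the longer probe of a member reached 1 base further towards the seed than the shorter. The longer probes of the 4 members whose signal is described most closely below are printed with that additional base in capitals.

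probe for miR-200b-3p: tcatcattaccaggcaG
probe for miR-141-3p: ccatctttaccagacaG
probe for miR-200a-3p: acatcgttaccagacagT
probe for miR-200c-3p: tccatcattacccggC

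The probes of some members are close to the sequence of others. Aligned without gaps, the longer miR-200b-3p probe had 2 mismatches to miR-200c-3p and 3 to both miR-200a-3p and miR-141-3p. The longer miR-141-3p probe had 2 mismatches to miR-200a-3p, and the longer miR-200a-3p probe 2 to miR-141-3p. The longer miR-429-3p probe had 4 or 5 mismatches to the other family members. For the longer miR-200c-3p probe the count was 9 or 10, but the alignment kept the whole probe within the other sequence. miR-200c-3p has 23 bases and reaches past the others at its 3′ end, so the matching register was not scored. That count therefore does not show that the miR-200c-3p probe is specific. The probe pairs bases 8 to 23 of miR-200c-3p. Over these, miR-200b-3p and miR-200c-3p differ by U11G and A22G, and miR-200b-3p lacks base 23. The longer miR-205-5p probe had at least 7 mismatches to every family member. Signal that reached a probe from another member was not measured, so a value below belongs to the probe and not with certainty to the named miRNA alone.

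All 4 arrays lay on 1 slide. The vehicle arrays were in row 1 and the CL arrays in row 2, so row and treatment cannot be told apart. Replicate 1 of both groups lay in column 3 and replicate 2 in column 4, which makes a comparison within a column possible. The scanner software detected between 386 and 431 miRNAs per array, fewer on the CL arrays (386 and 403) than on the vehicle arrays (431 and 420), and no spot was saturated. The 1000 negative control spots of an array, which match no miRNA, had median intensities from 31.2 to 38.4.

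The family was at or near the limit of detection in every sample. Of the 6 members, 5 were detected on none of the 4 arrays, and these were miR-200a-3p, miR-200c-3p, miR-141-3p, miR-429-3p and miR-205-5p. Their 6 opposite arms (the 5p arms of the family and miR-205-3p) were likewise detected on no array. miR-200b-3p was detected on vehicle 1, CL 1 and CL 2 but not on vehicle 2. Across the array, 793 of 1247 miRNAs were detected nowhere and 362 were detected on all 4 arrays. The name of an epithelial family is thus not matched by clear signal in these libraries, and a low level here is a bound set by the array and not an absence. Only miR-200b-3p met the condition for the test, which was detection on both arrays of at least 1 group. It met this condition through the CL arrays alone, so the filter favoured a higher value after CL. The direction of its difference is therefore described and not counted as support.

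miR-200b-3p is the member for which a comparison can be made. The summarised log2 values of mmu-miR-200b-3p were 4.39 and 4.31 with vehicle and 4.58 and 4.59 after CL. Both CL values lay above both vehicle values, a pattern that 38.1% of the 425 tested miRNAs also showed. The log2 fold change of CL over vehicle was 0.24 ± 0.12 (SE, n = 2 and 2), a 1.18-fold difference, with a 95% interval from -0.07 to 0.55. It passed neither threshold of 0.05 (limma's moderated test, Benjamini-Hochberg adjusted p = 0.202), and the interval includes 0. For comparison, 18.6% of the tested miRNAs were higher at an unadjusted p under 0.05 and 0% passed the adjusted threshold in either direction, while 148 of 425 passed the unadjusted one in limma and 60 in SAM, which also called none after adjustment. miR-200b-3p was 1 of those 60. It likewise passed the unadjusted threshold, and not the adjusted one, by the methods' t-test and in limma with an intensity trend (adjusted p = 0.347 in SAM, 0.328 and 0.101). The difference was 0.20 within column 3 and 0.28 within column 4. With the column as a block the adjusted p was 0.322, whereas 3.53% of the tested miRNAs were then higher at the adjusted threshold. The exact permutation test over the 4 arrays gave p = 0.333, which is the smallest value that 2 arrays against 2 allow.

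The spots behind this value show how little signal there was. On the longer miR-200b-3p probe the 20 spots of vehicle 1 ran from 41.1 to 63.5 with a median of 47.7, and those of vehicle 2 from 34.4 to 46.1 with a median of 38.5. On CL 1 they ran from 45.3 to 58.1 with a median of 50.9, and on CL 2 from 39.6 to 65.8 with a median of 47.1. The array's own background shifted these levels, since the negative controls had medians of 37.0, 31.2, 38.4 and 32.2 in the same order. Well above background were 5 of the 20 spots on vehicle 1 and 0 on vehicle 2, against 4 for CL 1 and 8 for CL 2. Vehicle 2 alone had none, and the counts of vehicle 1 and CL 1 were close.

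**Figure D1:**
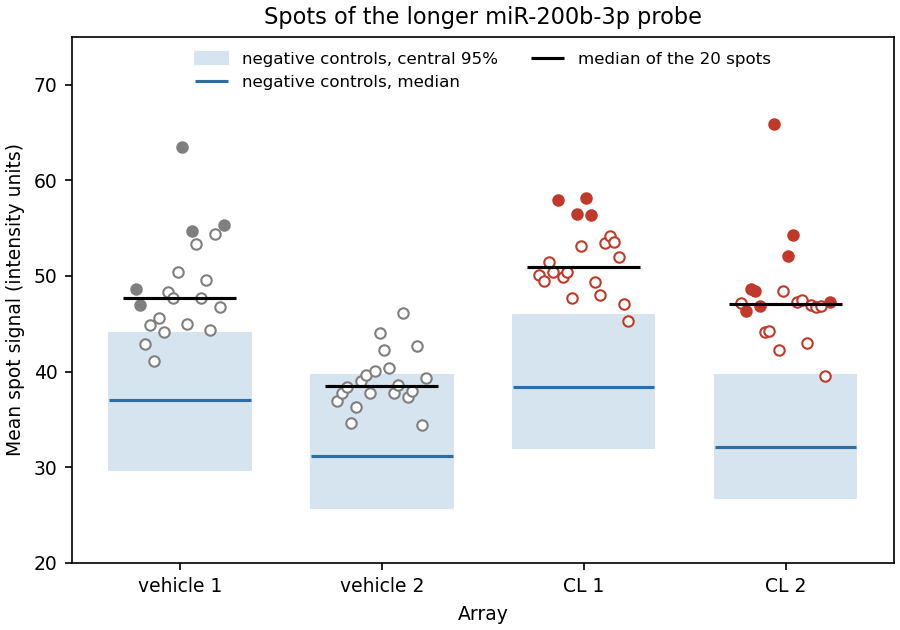
Mean intensity of each of the 20 spots of the longer miR-200b-3p probe (y axis, intensity units) on the 4 arrays (x axis), with the median of the spots as a black line. Filled points were well above background by the scanner software (5, 0, 4 and 8 spots), and the blue band and line give the central 95% and the median of the negative controls of the same array.

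Subtracting the median of the negative controls of the same array removes that shift. The excess of the longer miR-200b-3p probe was 10.69 and 7.31 intensity units with vehicle and 12.6 and 14.9 after CL. Both CL arrays lay above both vehicle arrays on this probe. The shorter probe, which lacks the single base printed in capitals, gave 1.48 and 0.159 with vehicle and 0.0125 and 0.849 after CL. There the groups overlapped and all 4 arrays were near the negative controls.

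miR-141-3p, the partner of miR-200c on chromosome 6, was never called detected, yet its longer probe separated the groups most widely among the members. The excess over the negative controls was 2.35 and 1.102 with vehicle and 11.0 and 8.58 after CL. Its shorter probe gave 1.01 and -0.966 with vehicle and -0.371 and 0.731 after CL, with overlapping groups. Of its 20 longer spots, 1 was well above background on CL 1 and none on the other 3 arrays.

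miR-200c-3p behaved alike on the longer probe, with an excess of -1.39 and 3.42 with vehicle and 6.98 and 6.52 after CL. The vehicle arrays fell on either side of the negative controls and both CL arrays lay above them. Its shorter probe also kept the CL arrays on top, at 0.824 and 1.38 against -0.397 and 0.403, although all 4 values were small.

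miR-200a-3p, which has the miR-141 seed but is encoded beside miR-200b, had an excess of 2.78 and 1.21 with vehicle and 6.56 and 7.80 after CL. On its shorter probe the vehicle arrays were below the negative controls, at -0.470 and -0.733, and the CL arrays above them, at 1.74 and 2.42. The groups did not overlap on either probe.

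miR-429-3p, the third miRNA of the chromosome 4 locus, parted the groups narrowly. Its longer probe gave 2.21 and 1.04 with vehicle and 2.78 and 3.81 after CL. The shorter probe gave 1.31 and 0.629 with vehicle and 3.94 and 4.02 after CL. For this member the shorter probe parted the groups more widely than the longer.

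miR-205-5p, outside the family by sequence, did not share the pattern. Its longer probe was at -1.25 and 0.101 with vehicle and at -1.45 and -1.67 after CL. The CL arrays lay just below the vehicle arrays, by 0.985 intensity units on average, and on the shorter probe the groups overlapped between -3.71 and -1.82. A solitary spot on vehicle 2 reached 121 and was well above background, while the median of that array's 20 spots was 31.3.

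**Figure D2:**
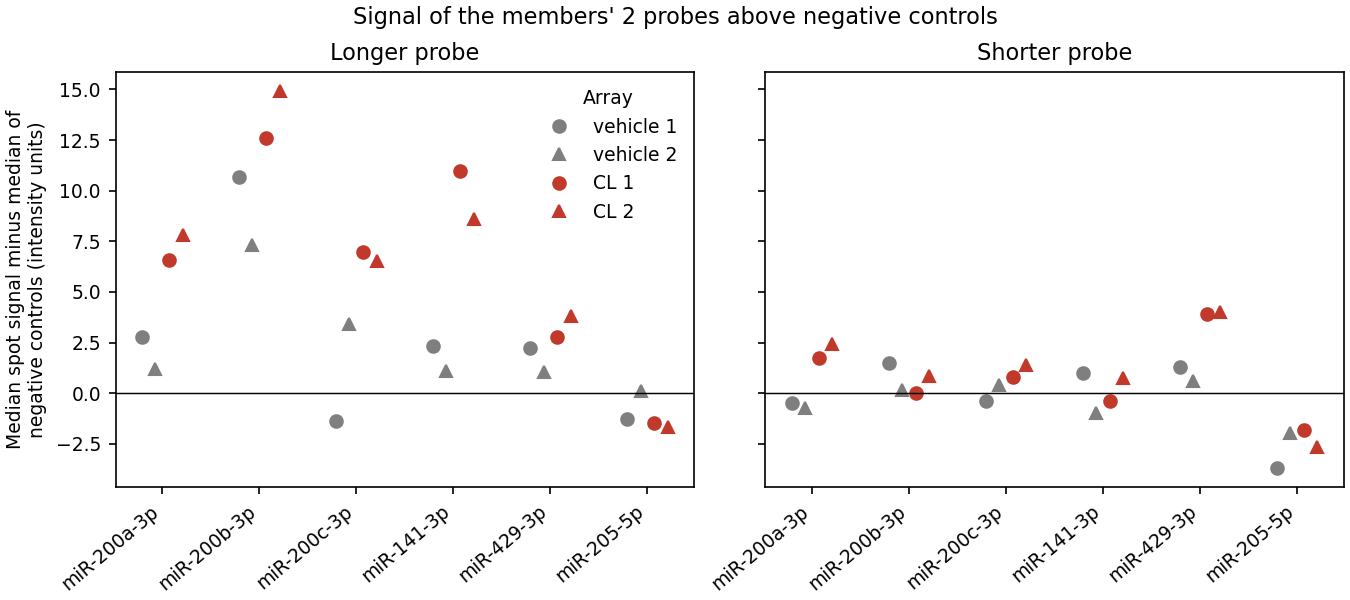
Median spot signal minus the median of the negative controls of the same array (y axis, intensity units) for the longer probe (left) and the shorter probe (right) of each member (x axis), with vehicle arrays in grey, CL arrays in red, circles for replicate 1 and triangles for replicate 2. On the longer probe the CL arrays lie above the vehicle arrays for the 5 family members and below them for miR-205-5p. Over all 1247 miRNAs they lie above in 247 and below in 414 on the longest probe. On the shorter probe the groups overlap for miR-200b-3p, miR-141-3p and miR-205-5p.

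These values lie under the limit of detection, and they were set beside those of the other undetected miRNAs. Among the 5 members detected on no array, both CL arrays exceeded both vehicle arrays on the longest probe in 4, against 16.3% of all 793 undetected miRNAs (129 above, 197 below and 467 overlapping). The mean difference between CL and vehicle was 8.06 intensity units for miR-141-3p, 5.74 for miR-200c-3p, 5.18 for miR-200a-3p, 1.67 for miR-429-3p and -0.985 for miR-205-5p. Over the 793 undetected miRNAs the median difference was -0.244, with 5% of them below -2.93 and 5% above 2. miR-141-3p, miR-200c-3p and miR-200a-3p thus lay above that upper limit and miR-429-3p below it. The count stayed at 4 of 5 members when any of the 4 arrays was left out, where the share of all undetected miRNAs was between 27.6% and 32.8%. On the shortest probe the count was 3 of 5, against 12.7% of the 789 undetected miRNAs with more than 1 probe. The 5 values are no independent measurements, since the probes of the family can share targets and the arrays are the same, and this description carries no test.

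**Figure D3:**
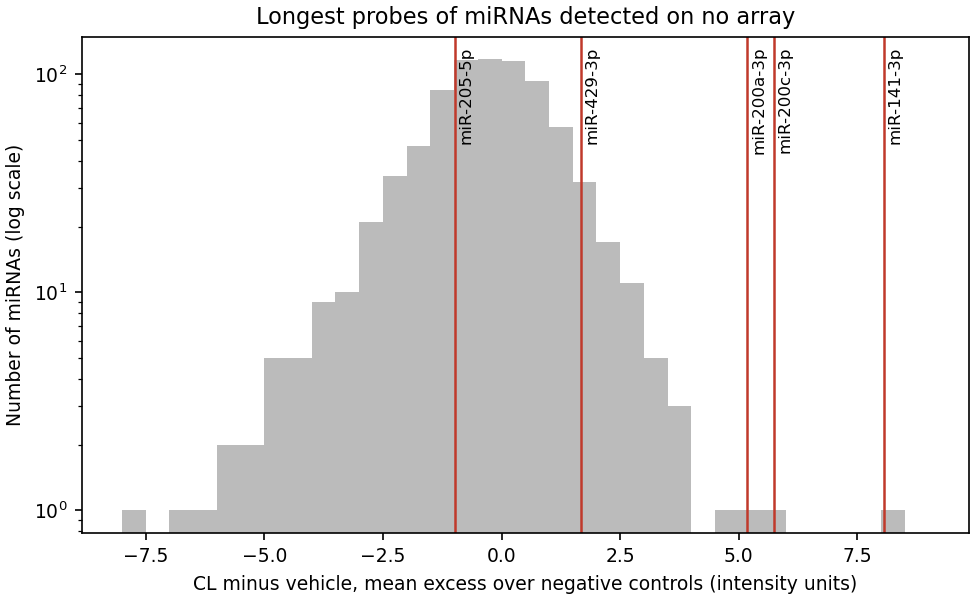
Difference between CL and vehicle in the mean excess over negative controls (x axis, intensity units) on the longest probe of the 793 miRNAs detected on no array, as numbers of miRNAs per bin (y axis, log scale). Red lines mark the 5 undetected members, from miR-205-5p at -0.985 to miR-141-3p at 8.06.

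The opposite arms of the same hairpins had no direction in common. On their longest probes the CL arrays lay above the vehicle arrays for miR-141-5p and miR-200c-5p and below them for miR-200a-5p. The groups overlapped for miR-200b-5p, miR-429-5p and miR-205-3p. Over all 793 undetected miRNAs, 129 were above, 197 below and 467 overlapping. For miR-141-5p the groups barely parted, at -2.43 and -2.19 with vehicle and -2.14 and -2.15 after CL, all below the negative controls. The excess of miR-200a-5p was 5.02 and 4.93 with vehicle and 1.60 and 0.453 after CL, the reverse of its 3p arm. For miR-200c-5p all 4 values were below the negative controls, at -2.95 and -2.39 with vehicle and -0.446 and -1.06 after CL.

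Other miRNAs known from epithelia were read from a list of 9. Of these, 3 were detected, all on every array, and 6 were detected nowhere: miR-183-5p, miR-96-5p and miR-182-5p, which form a cluster of sensory and secretory epithelia, miR-215-5p of the gut and kidney, miR-375-3p of endocrine and mucosal epithelia, and miR-31-5p. None of the 3 was higher after CL and 1 was lower at an unadjusted p under 0.05, where 18.6% of all tested miRNAs were higher and 16.2% lower, with a median log2 fold change of -0.06 beside -0.01 over all tested miRNAs. The lower one was miR-203-3p, known for ending proliferation in the epidermis. Its log2 signal was 5.84 and 6.02 with vehicle and 5.53 and 5.61 after CL, so that the groups did not overlap. It differed by -0.36 ± 0.13 (SE; limma, adjusted p = 0.136). With the column as a block it no longer passed the unadjusted threshold (limma, adjusted p = 0.177), except where non-uniform spots alone were left out. With the trend on probe composition removed it differed by -0.56 ± 0.16. It then passed the unadjusted threshold but not the adjusted one (limma, adjusted p = 0.0653). Leaving out an array gave -0.45 to -0.27. miR-192-5p and miR-194-5p, which are transcribed together and abundant in gut, liver and kidney, had log2 fold changes of -0.06 ± 0.14 and 0.03 ± 0.12. Their groups overlapped, and neither passed the test (limma, adjusted p = 0.784 and 0.852). Among the undetected epithelial miRNAs, miR-31-5p also had higher summarised log2 values after CL, at 4.03 and 4.15 against 3.85 and 3.87 with vehicle. The CL values lay above those with vehicle for miR-215-5p too. The groups overlapped for miR-183-5p, miR-96-5p, miR-182-5p and miR-375-3p. None of these was tested.

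The miR-34 and miR-449 miRNAs, which are needed for multiciliated epithelial cells and of which miR-34b and miR-34c are also p53 targets, were read from a list of 7 arms. Of these, 2 were tested, both higher at an unadjusted p under 0.05 beside 18.6% of all tested miRNAs and neither past the adjusted threshold, with a median log2 fold change of 1.51. miR-34b-5p had log2 signals of 6.19 and 5.06 with vehicle and 7.39 and 7.26 after CL. Its log2 fold change was 1.70 ± 0.40 (limma, adjusted p = 0.103), with 1.13 between the 2 vehicle arrays. miR-34c-5p had 5.50 and 4.75 with vehicle and 6.49 and 6.40 after CL, a log2 fold change of 1.32 ± 0.28 (limma, adjusted p = 0.103). With the column as a block the adjusted p in limma was 0.0428 for both. It was 0.0801 for both where outlier spots were left out after quantile normalization and 0.0834 where non-uniform spots alone were left out. With the block it was 0.0473 for both with normexp by maximum likelihood and 0.0460 for both with outlier spots left out of all arrays. With median polish run to a tighter tolerance it was 0.00112 for miR-34b-5p and 0.00187 for miR-34c-5p. Without the block, but with the trend on probe composition removed, it was 0.0369 for miR-34b-5p and 0.0317 for miR-34c-5p. miR-449a-5p, which has the same seed family, was detected on CL 2 alone and was not tested, and miR-449b and miR-449c-5p were detected nowhere.

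Some miRNAs of cell types that are not epithelial differed between the groups at the unadjusted threshold, and their part in the values of the family was not tested. In an SVF as a whole, a change in the number of cells of a type and a change in the miRNA content of each cell cannot be told apart. Of 9 miRNAs known from mesenchymal cells, all were detected on every array, 6 were higher and 2 lower at an unadjusted p under 0.05, with a median log2 fold change of 0.86. Over all tested miRNAs 18.6% were higher and 16.2% lower at that threshold, and these shares stand beside the counts of the next lists too. They did not move as a block: miR-199b-5p, a fibroblast and smooth muscle miRNA, differed by 1.48 ± 0.37 (0.95 without vehicle 2), while miR-10b-5p differed by -1.31 ± 0.21. Of the endothelial pair, miR-126-3p differed by -1.37 ± 0.16 and miR-126-5p by -0.80 ± 0.20, and both were lower at the unadjusted threshold, the second not without CL 1. Of 4 leukocyte miRNAs, 2 were higher and 1 lower, with miR-142-3p at 2.09 ± 0.56 (1.28 without vehicle 2) and the lymphocyte miRNA miR-150-5p at -0.89 ± 0.15. Both red cell miRNAs were higher, miR-144-3p by 2.97 ± 0.50 and miR-451a by 0.73 ± 0.16. With the trend on probe composition removed, miR-451a differed by 0.23 ± 0.25 and no longer passed the unadjusted threshold, nor did it without CL 1. With the processing first set, without the block and with that trend left in, none of the miRNAs in these lists passed the adjusted threshold. There 0 of 425 miRNAs did, and other processing without the block gave other counts. With the trend removed and no block, 51 of 425 did. The miRNAs named here then passed the adjusted threshold (limma, adjusted p from 0.0137 to 0.0477), except miR-451a (0.516). With the column as a block, 5 of the 9 mesenchymal, 1 of the 2 endothelial, 3 of the 4 leukocyte and 1 of the 2 red cell miRNAs passed it in limma, beside 9.41% of all tested miRNAs, and the number of such calls over the array varied widely with small details of the processing.

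**Figure D4:**
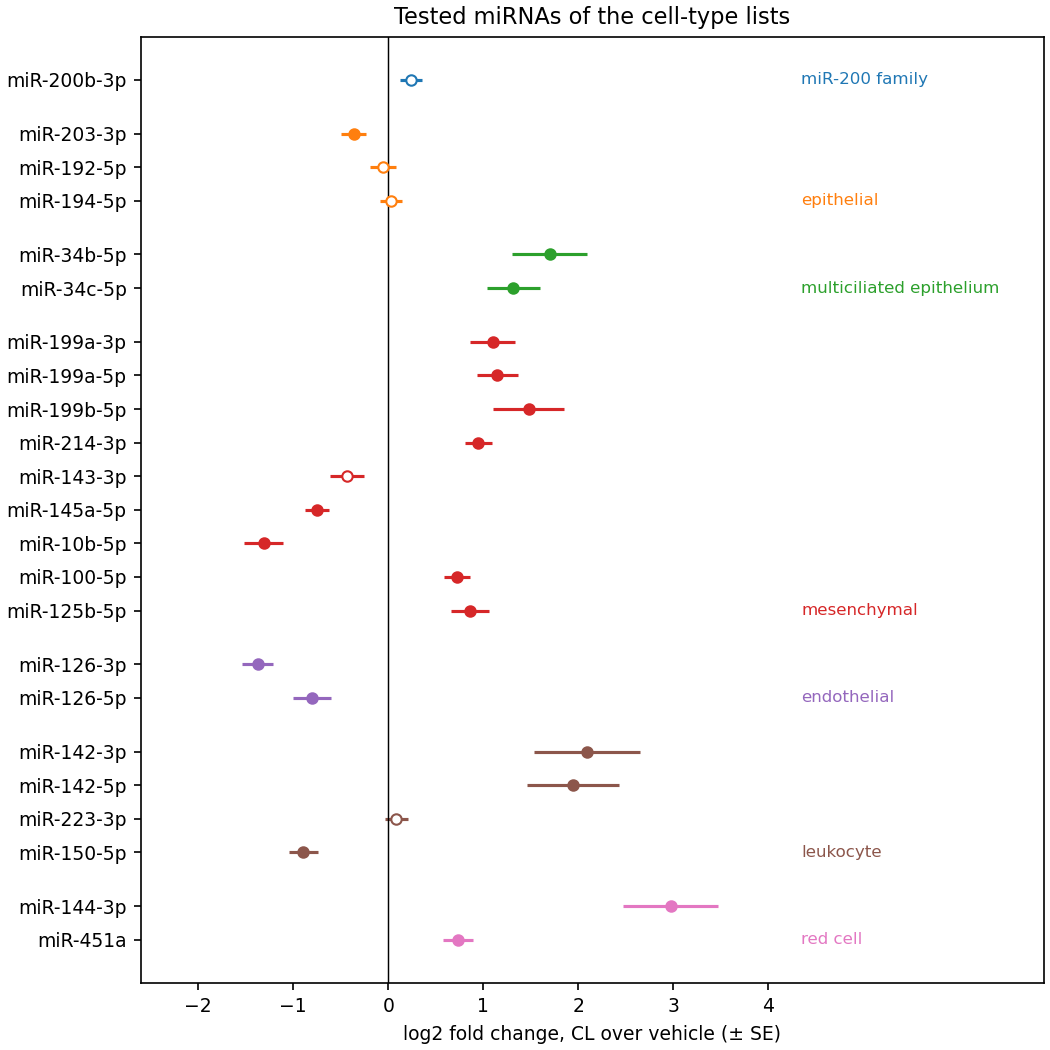
Log2 fold change of CL over vehicle (x axis) with its standard error for each tested miRNA (y axis) of the 7 lists, coloured by list, filled where the unadjusted p was under 0.05. miR-200b-3p sits at 0.24 and is open, the 3 tested epithelial miRNAs lie between -0.36 and 0.03, and miR-34b-5p and miR-34c-5p lie at 1.70 and 1.32.

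The miRNAs whose profile over the 4 arrays was most like that of miR-200b-3p were sought among the other 424 tested miRNAs, by the Euclidean distance between log2 signals centred on their own mean. The nearest were miR-20b-5p at 0.024, miR-181a-1-3p at 0.031 and let-7c-1-3p at 0.032, where the median distance was 0.497. miR-20b-5p had log2 signals of 7.44 and 7.35 with vehicle and 7.65 and 7.67 after CL. Its log2 fold change of 0.26 ± 0.12 did not pass the test either (limma, adjusted p = 0.188). Likeness over 4 arrays is a description, and nothing further is read from it.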

How the data were processed

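miRNA was measured on 4 one-colour Agilent arrays of visWAT SVF RNA, 2 vehicle and 2 CL, grouped by the sample titles. The authors deposited the linear intensity of every spot as exported by Feature Extraction 10.7.1.1, and a table of log2 values that served here as an alternative only. The mean spot intensity was background-corrected by normexp (limma 3.58.1, R 4.3.3) over all spots, with neither a local background nor an offset. Control spots and 1762 to 2550 outlier spots per array were then dropped. After quantile normalization, the spots of each miRNA were combined on the log2 scale by median polish. Detection by the scanner software on both vehicle arrays or on both CL arrays was required for testing (425 of 1247). The test was limma's two-sided moderated test (lmFit, eBayes), adjusted after Benjamini-Hochberg. The methods name SAM, which was an alternative. Spread is that of 2 arrays per group, and the number of arrays limits the precision. The fit was tested on simulated data.

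The members and the lists were chosen with earlier results of these data known. The text names the 6 members and their opposite arms, the listed miRNAs by counts and examples, and the 3 tested miRNAs nearest to a tested member. The probes were matched to RefSeq by sequence. The positions listed for the members' 12 probes in the scanner files fell within the hairpin but on the opposite arm, and fell within the mature miRNA for all 12 once mirrored within the hairpin, so RefSeq positions are given here. Whether same-numbered arrays are paired is not stated. Their deviations from the group means correlated at 0.12 over 425 miRNAs in 2 pairs, which does not establish a pairing, and the number is used as a block because it coincides with the column of the slide.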

Additional observations from a re-analysis of the deposited data

How the results depend on the processing

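miR-200b-3p was higher after CL in all 29 alternatives, by 0.08 to 4.42 on the log2 scale, and passed the adjusted threshold in none (adjusted p between 0.0544 and 0.920) and the unadjusted one in 6. Leaving out an array gave 0.20 to 0.28, and the highest value came from the deposited table, where vehicle 2 is set to the lowest value of its array. The shared direction is not independent support, because miR-200b-3p met the condition for the test through the CL arrays alone. The undetected members other than miR-205-5p were higher in all 18 alternatives run for them, except that miR-429-3p was at -0.01 with the probe composition trend removed. miR-205-5p was lower in 14, higher in 2 and at 0 in 2.

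The number of miRNAs called over the whole array was not stable. Past the unadjusted threshold it was 148, against 91 with median centring, 60 with SAM and 52 with the methods' t-test, and 61 to 263 when an array was left out, with 263 without vehicle 1. Past the adjusted threshold it was 0, against 64 where arrays were not normalized to each other, 44 after median centring, 27 for scanner totals, 7 for the deposited table, 51 with the probe composition trend removed and 2 with an intensity trend. Leaving out an array gave 1 to 230, with 230 without vehicle 1. With the replicate number, and so the slide column, as a block it was 40.

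After these results had been seen, and because the count with the block differed from that of an earlier processing of the same data, 5 other details of the same steps were tried, and all are given here. Without the block they gave 0 to 1 calls at the adjusted threshold: 1 with flagged spots left out of all arrays, 1 with non-uniform spots alone left out, and 0 for the rest. With the block they gave 19 with normexp by maximum likelihood, 22 with flagged spots left out of all arrays, 5 with outlier spots left out after quantile normalization, 1 with non-uniform spots alone left out and 109 with median polish run to a tighter tolerance. None replaced the processing first set. Calls at the adjusted threshold with the block, those of miR-34b-5p and miR-34c-5p included, therefore rest on such details. The cause was not tested. Signal close to the negative controls limits every statement on the family.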

Other observations

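The deposited log2 table and the scanner totals order the arrays differently for miR-200b-3p. The scanner software's total signal was 180 for vehicle 1 and 1.85 for vehicle 2, against 115 for CL 1 and 168 for CL 2, so vehicle 1 was the highest. The deposited log2 values were -0.09 for vehicle 1 and -3.299 for vehicle 2, against 2.78 for CL 1 and 2.67 for CL 2, so both CL arrays were higher than vehicle 1. The value of -3.299 is the lowest of its array, and the other 5 members stand at the lowest value on all 4 arrays of that table.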
